A study of Mus musculus with 16 samples.

Results

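The 10 genes described here are markers of mesothelial cells, chosen by name (Msln, Upk3b, Upk1b, Krt19, Krt8, Krt18, Wt1, Lrrn4, Muc16 and Gpm6a) from the 19373 genes of an expression table. Earlier results of these data were known when the list was chosen. The table holds bulk RNA sequencing of gonadal white adipose tissue (gWAT) from 16 male mice on a C57BL/6J background. The mice carried floxed Mboat7 alleles. Each diet, chow or a high fat diet (HFD) for 20 weeks, had 4 control mice (Mboat7 flox/flox) and 4 mice of the genotype Mboat7 ASKO, and all were fasted for 4 h before necropsy. Mboat7 encodes an acyltransferase that places arachidonic acid on lysophosphatidylinositol. In the ASKO mice Cre recombinase was driven by the adiponectin promoter, so the deletion was aimed at adipocytes, and mesothelial cells are not a target of the design. Each mouse gave 1 library. Values are FPKM, fragments per kilobase of transcript scaled to the mapped fragments of the library, and each question below is whether these 10 genes differed between diets or genotypes by more than the mice of a group differed from each other.

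Mesothelium is the single layer of flattened epithelial cells that lines the abdominal cavity and covers the organs in it, including gonadal fat. Its cells keep an epithelial cytoskeleton of simple keratins, carry membrane glycoproteins such as mesothelin on their free surface, and keep the transcription factor Wt1 from their origin in the embryonic coelomic lining. In pieces of visceral fat they are a thin outer sheet next to a much larger mass of adipocytes, vessels and immune cells. Since the tissue was measured as a whole, fewer mesothelial cells and less RNA per mesothelial cell cannot be told apart.

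All 10 genes had 1 row each in the table, and they were low. Mean FPKM over all 16 mice was highest for Gpm6a at 7.995, above 76.4% of all genes, and for Upk3b at 5.998, above 71.7%. Krt19 averaged 2.82, Wt1 2.36, Msln 2.26, Krt18 2.0 and Upk1b 1.496 FPKM. Lrrn4 at 0.626, Krt8 at 0.409 and Muc16 at 0.00708 FPKM were the lowest. A filter of at least 1 FPKM in at least 4 mice left 13148 genes for testing, with 8 of the 10 markers among them, while Krt8 and Muc16 did not pass. A marker could pass through the group in which it was high. Lrrn4 passed with exactly 4 mice, all on chow, so its lower values on HFD are a description and do not support a diet effect. Upk1b reached 1 FPKM in 4 control mice on chow, and otherwise only in 1 control and 2 ASKO mice on HFD. It would not have passed without the control mice on chow, so its lower values elsewhere are also a description. Counts over the 8 tested markers are likewise given as descriptions, beside the same count for all tested genes. The list was not chosen blind to these data, so a count above that share is not an unbiased result. An exact 0 in this table was not proof of absence, since Ppia and Pgk1, which cells in general express, were also listed at 0 in 9 and 11 of the 16 mice.

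The genes lie on 8 chromosomes of mouse build mm10, and Krt8 and Krt18 are close neighbours. The locus of Gpm6a, which encodes a tetraspan membrane glycoprotein also made by neurons, is chr8:54954843-55060871 on the plus strand. Upk3b, a uroplakin of the membrane plaques of urothelium that mesothelial cells also make, is at chr5:136038496-136046487 on the plus strand. Lrrn4, a membrane protein with leucine-rich repeats, is at chr2:132868305-132880891 on the minus strand. The sequences just upstream of these 3 genes are shown because they were the markers whose chow and HFD values did not overlap in control mice. They are read 5′ to 3′ on the gene's strand from RefSeq's mouse table (GRCm38.p6) at chr8:54954478-54954727, chr5:136038246-136038495 and chr2:132880892-132881112, and the capitals mark GGAATG or its reverse complement, the core letters of the site read by TEAD factors.
Gpm6a: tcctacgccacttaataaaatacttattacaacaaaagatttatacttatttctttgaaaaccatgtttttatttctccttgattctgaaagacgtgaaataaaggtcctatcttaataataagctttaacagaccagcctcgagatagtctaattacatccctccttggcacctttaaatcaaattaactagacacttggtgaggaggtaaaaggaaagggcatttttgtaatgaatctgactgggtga
Upk3b: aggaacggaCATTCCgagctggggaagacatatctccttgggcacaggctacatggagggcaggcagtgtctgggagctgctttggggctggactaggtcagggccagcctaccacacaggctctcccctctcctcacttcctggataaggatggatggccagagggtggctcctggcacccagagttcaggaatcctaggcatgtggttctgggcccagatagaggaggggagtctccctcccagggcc
Lrrn4: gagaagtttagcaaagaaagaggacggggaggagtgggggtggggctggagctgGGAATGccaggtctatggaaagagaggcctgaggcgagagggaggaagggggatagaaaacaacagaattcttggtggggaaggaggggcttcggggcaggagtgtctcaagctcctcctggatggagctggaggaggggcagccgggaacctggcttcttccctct

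Gpm6a is AT-rich in this window (33.6% G and C), whereas Upk3b (60.8%) and Lrrn4 (59.3%) are not. RefSeq entries matched 6 of the 10 markers, in 7 windows of 250 bases because Gpm6a has a start in each of 2 places. GGAATG on either strand was in 3 of these 7 windows, those of Upk3b and Lrrn4 and the farther window of Gpm6a, against 12.6% of all 32851 promoter windows. GCGNGGGNG, letters that the zinc fingers of Wt1 and Egr proteins read, was in 0 of the 7 windows and in 10.5% of all. A match in such a window describes its letters and is not a binding site.

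Mboat7 itself was low in whole gWAT and did not separate the genotypes in these libraries. Its values were 2.42, 4.33, 0.902 and 4.99 FPKM in control mice on chow and 0, 1.39, 0 and 2.89 in ASKO mice on chow. On HFD they were 0, 0, 2.15 and 1.61 in control mice and 1.14, 0, 2.60 and 0 in ASKO mice. The groups overlapped on both diets, with limma differences between genotypes of -1.12 on chow (adjusted p = 0.983) and -0.02 on HFD (adjusted p = 1.0) on the log2(FPKM + 1) scale, so the table does not check the genotype labels.

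Detection of the mesothelial markers was lower on HFD. Over the 10 genes and 8 mice of a diet, 54 of 80 readings (67.5%) were above 0 on chow and 29 of 80 (36.25%) on HFD, while the share for all tested genes was 76.6% on chow and 79.55% on HFD. By group, 31 of 40 readings were above 0 in control mice on chow, 23 in ASKO mice on chow, 14 in control mice on HFD and 15 in ASKO mice on HFD. Gpm6a was above 0 in all 16 mice and was the only marker for which this held. Upk3b and Wt1 were above 0 in all 8 mice on chow, and on HFD in 5 and 4 mice. Lrrn4 was above 0 in 6 mice on chow and in 0 on HFD, and Krt8 and Muc16 were likewise listed above 0 on chow alone. For Krt8 this pattern is uncertain, since its near-identical copy Krt8-ps was listed at 5.35 FPKM in control HFD replicate 3. Without control HFD replicate 3, which held 6 of the readings above 0 in its group, the HFD count was 23 of 70.

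**Figure D1:**
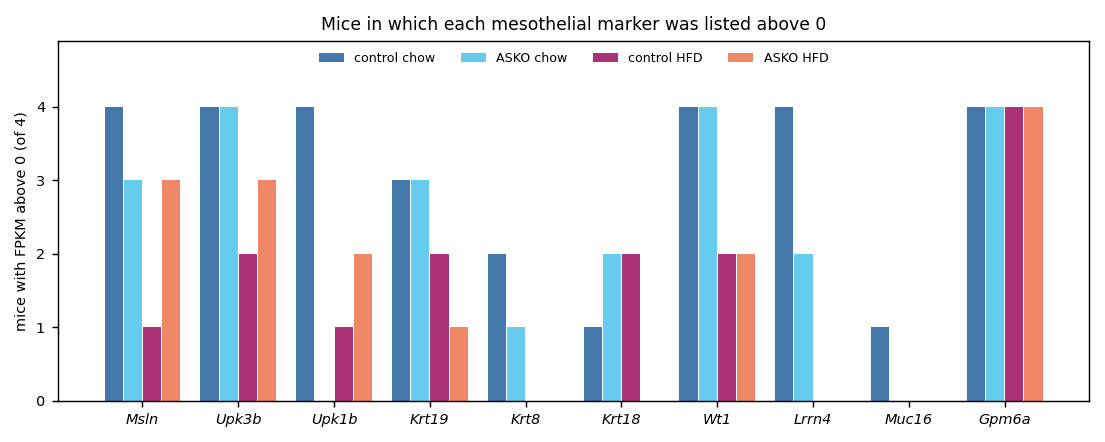
Number of mice, of 4 in each group, in which each mesothelial marker was listed above 0 FPKM (y axis) for the 10 genes (x axis), with 1 bar per genotype and diet. Gpm6a reached 4 mice in every group, and Lrrn4, Krt8 and Muc16 have no bar for either HFD group.

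The summed FPKM of the 10 genes was 30.5, 45.4, 63.3 and 52.8 in the 4 control mice on chow (48.0 ± 13.8, SD, n = 4) and 37.5, 33.1, 21.95 and 30.05 in the 4 ASKO mice on chow (30.6 ± 6.54, SD, n = 4). On HFD it was 4.87, 4.05, 7.52 and 34.2 in control mice (12.7 ± 14.4, SD, n = 4) and 11.6, 10.1, 8.05 and 20.5 in ASKO mice (12.6 ± 5.51, SD, n = 4). Control HFD replicate 3 stood apart from its group, within the range of the mice on chow, and the other 7 mice on HFD were below all 8 mice on chow. Without it the control HFD mean was 5.48 ± 1.82 (SD, n = 3). Within groups, the spread of the members was wide, though on chow no wider than that of genes with means in the same range. The median coefficient of variation over the markers was 66.5% in control mice on chow and 133% in control mice on HFD, against 84.4% and 85.1% for the 8142 tested genes with means in the same range as the tested markers. In ASKO mice it was 88.2% on chow and 93.4% on HFD, against 91.3% and 77.2%.

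**Figure D2:**
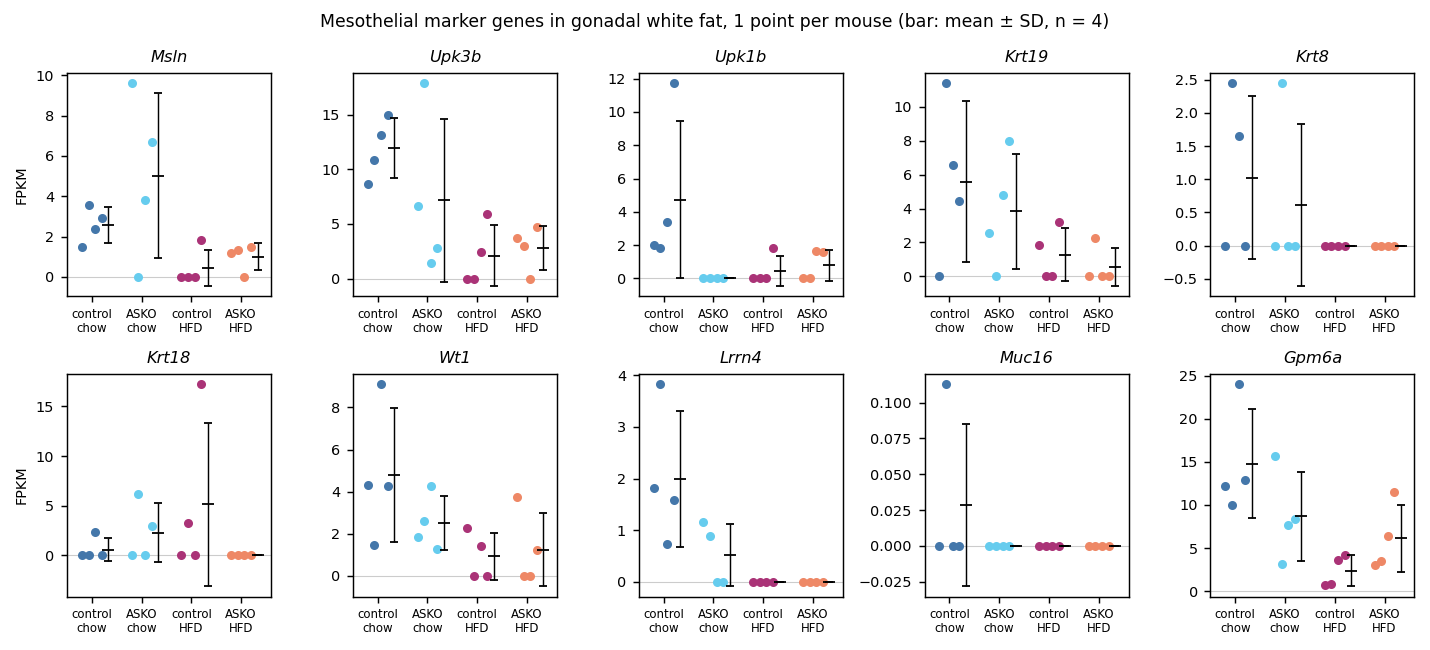
FPKM (y axes, linear, a separate scale for each gene) of the 10 mesothelial markers in the 4 groups (x axis), with 1 point per mouse and a bar for the mean ± SD (n = 4). Points for Gpm6a, Upk3b and Lrrn4 in control mice on HFD lie below all points for control mice on chow, and a single control mouse on HFD holds the 17.3 FPKM reading of Krt18.

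Gpm6a fell on HFD in control mice. It was 12.2, 10.04, 24.1 and 12.9 FPKM in the 4 control mice on chow and 0.760, 0.835, 3.65 and 4.15 FPKM in the 4 on HFD. The groups did not overlap, and control HFD replicates 0 and 1 were the 2 lowest of all 16 mice. The limma difference was -2.34 ± 0.54 (SE) on the log2(FPKM + 1) scale, with an adjusted p of 0.0233. Lrrn4 was 1.82, 3.84, 0.725 and 1.59 FPKM in control mice on chow and listed at 0 in all 4 on HFD, so that no fold is given. It was also called (adjusted p = 0.0344, limma), as a gene that had passed the filter through chow mice alone and against zeros that may not mean absence. These 2 of the 8 tested markers were called lower, at an adjusted p under 0.05 and a difference beyond 0.5, against 1.10% of all tested genes called lower and 2.91% called in either direction.

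Both calls rested on few mice and few fragments. In low genes the FPKM of a mouse moved in steps close to the value of 1 fragment, from which Gpm6a was estimated at 27 fragments in its highest mouse and Lrrn4 at 4. With only the 8 control mice in the fit, the adjusted p was 0.0578 for Gpm6a and 0.115 for Lrrn4. The call for Gpm6a was lost without control chow replicate 2 (adjusted p = 0.0878), control chow replicate 3 (0.0545), control HFD replicate 0 (0.0688) or control HFD replicate 1 (0.0791). The call for Lrrn4 was lost without control chow replicate 0 (adjusted p = 0.0697), 1 (0.113) or 3 (0.0656), without control HFD replicate 0 (0.0721), 1 (0.0821), 2 (0.0702) or 3 (0.0767), or without ASKO HFD replicate 0 (0.0503).

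The remaining membrane and surface proteins had lower means in control mice on HFD and did not pass the adjusted threshold. Upk3b was 8.65, 10.8, 13.1 and 15.0 FPKM on chow and 0, 0, 2.46 and 5.86 FPKM on HFD. The groups did not overlap, at the smallest p that 4 mice against 4 allow (exact permutation test, two-sided, p = 0.0286), and the limma difference was -2.52 ± 0.75 (SE, adjusted p = 0.0901). Among 27 refits with other settings or 1 mouse left out, Upk3b was called in 1, without control HFD replicate 3 (adjusted p = 0.0440, limma). In the others its adjusted p reached 0.231. Upk1b, the tetraspanin partner of uroplakins in urothelial plaques, was 2.01, 1.80, 3.37 and 11.7 FPKM on chow and 0, 0, 0 and 1.83 FPKM on HFD. Here the highest mouse on HFD exceeded the lowest on chow by a small margin, and the difference was -1.84 ± 0.54 (SE, adjusted p = 0.0826). Of 26 such refits 2 called Upk1b, without control HFD replicate 3 (adjusted p = 0.0423, limma) and with the replicate block (0.0409). In the others the adjusted p reached 0.219. Upk1b had also passed the filter only through the control mice on chow. Msln, a surface glycoprotein anchored by a lipid, was 1.48, 3.54, 2.36 and 2.90 FPKM on chow and 0, 0, 0 and 1.81 FPKM on HFD. Its groups overlapped through 1 mouse, with a difference of -1.43 ± 0.64 (SE, adjusted p = 0.318). Muc16, the large mucin that mesothelin binds, was listed at 0.113 FPKM in 1 control mouse on chow and at 0 in all others.

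Wt1, which encodes a zinc finger transcription factor, was 4.31, 1.43, 9.13 and 4.25 FPKM in control mice on chow and 2.24, 0, 1.42 and 0 FPKM in control mice on HFD. The ranges met between the lowest mouse on chow and the highest on HFD, and the difference was -1.61 ± 0.61 (SE, adjusted p = 0.210). The keratins, which form the intermediate filaments of simple epithelia, did not share a direction. Krt19 was 0, 11.4, 6.57 and 4.42 FPKM on chow and 1.87, 0, 0 and 3.21 FPKM on HFD in control mice, a difference of -1.35 ± 0.82 (SE, adjusted p = 0.507). Krt18 was listed at 0, 0, 2.32 and 0 FPKM on chow and at 0, 3.21, 0 and 17.3 FPKM on HFD. It was the only tested marker with a fitted difference above 0, at 1.13 ± 0.84 (SE, adjusted p = 0.610), with control HFD replicate 3 as the highest value. Krt8, its filament partner, was 0, 2.44, 1.65 and 0 FPKM in control mice on chow and 0, 2.44, 0 and 0 in ASKO mice on chow, and was listed at 0 in all 8 mice on HFD. Krt8 and Krt18 each have a near-identical copy in the GENCODE annotation, Krt8-ps at 98.6% identity over 941 bases and Gm5200 at 90.5% over 1267 bases. Krt8-ps was itself listed at 4.09 to 10.4 FPKM in 4 mice, in all of which Krt8 was at 0. They included control HFD replicate 3 (5.35 FPKM), and the others were on chow. Reads of Krt8 in particular may therefore have gone to the copy, on HFD as well. The exons of Krt8 also overlap those of Gm36026.

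Over the 8 tested markers the median difference in control mice was -1.55, against 0.00 over all tested genes, and 7 of the 8 were below 0 where 49.8% of all tested genes were. An unadjusted limma p under 0.05 with a lower value was met by 6 of the 8, against 6.49% of all tested genes, and 3 of the 8 had lower values without overlap, against 3.89%. The 6 include Lrrn4 and Upk1b, and the 3 include Lrrn4. Neither gene would have passed the filter without the control mice on chow, and the list was chosen with earlier results of these data known. These counts are therefore descriptions and do not support a diet effect. Without Lrrn4, whose HFD values were all 0, the median over the other 7 was -1.61.

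In ASKO mice the same diet comparison called 0 of the 8 tested markers, with 1.30% of all tested genes called lower and 3.43% in either direction. At an unadjusted p under 0.05, 0 of the 8 passed, against 15.0% of all tested genes. Gpm6a was 15.6, 3.14, 7.68 and 8.40 FPKM in ASKO mice on chow and 3.01, 3.49, 6.39 and 11.6 FPKM on HFD. These groups overlapped widely (difference -0.44 ± 0.54, SE, adjusted p = 0.784). Upk3b was 6.67, 17.9, 1.41 and 2.77 FPKM on chow and 3.67, 2.96, 0 and 4.70 FPKM on HFD (difference -0.91 ± 0.75, SE, adjusted p = 0.641), with 1 mouse on chow far above the rest. Lrrn4 was 1.16, 0.881, 0 and 0 FPKM on chow and listed at 0 on HFD, and Upk1b was listed at 0 in all ASKO mice on chow and at 0, 0, 1.65 and 1.57 FPKM on HFD. Msln was 9.60, 0, 3.803 and 6.67 FPKM on chow and 1.17, 1.34, 0 and 1.47 FPKM on HFD, a difference of -1.24 ± 0.64 (SE, adjusted p = 0.389). All values of Msln on HFD lay under the 3 higher values on chow. Wt1 was 1.83, 2.58, 4.26 and 1.28 FPKM on chow and 3.72, 0, 0 and 1.23 FPKM on HFD (difference -0.88 ± 0.61, SE, adjusted p = 0.561). Krt19 was 2.56, 0, 4.80 and 7.96 FPKM on chow and 0, 2.27, 0 and 0 FPKM on HFD (difference -1.46 ± 0.82, SE, adjusted p = 0.437). Krt18 was 0, 6.19, 0 and 2.96 FPKM on chow and listed at 0 in all 4 on HFD. Over the 8 tested markers the median difference was -0.90, against 0.03 over all tested genes, with 7 of the 8 below 0 and 48.3% of all tested genes below 0. Over the 5 markers without a group at 0 throughout it was -0.91.

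**Figure D3:**
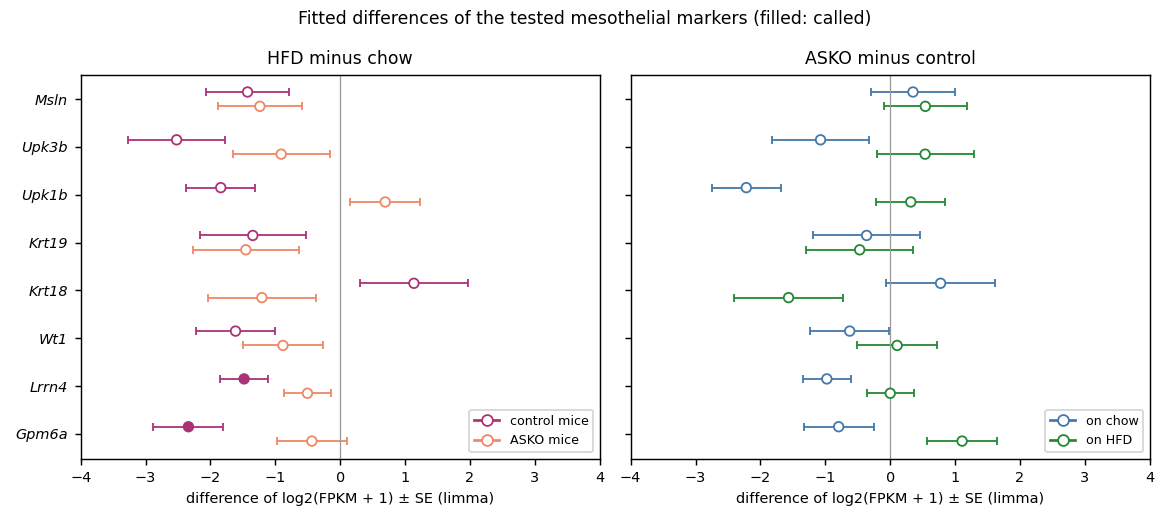
Fitted limma differences of log2(FPKM + 1) ± SE (x axes) for the 8 tested mesothelial markers (y axis), HFD minus chow in each genotype (left) and ASKO minus control on each diet (right). Filled points, Gpm6a and Lrrn4 in control mice, were called, and where a group was listed at 0 throughout (Lrrn4 on HFD, Upk1b in ASKO mice on chow, Krt18 in ASKO mice on HFD) the size depends on the pseudocount of 1.

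When the diet effect was averaged over both genotypes, a comparison chosen after the data had been seen, all 8 tested markers were below 0 (49.5% of all tested genes) and again 2 were called lower, Gpm6a and Lrrn4, against 3.04% of all tested genes called lower and 7.53% in either direction. Of these, Lrrn4 had passed the filter through chow mice alone and was listed at 0 in all 8 mice on HFD. The differences were -1.39 ± 0.38 (SE, adjusted p = 0.0327) for Gpm6a, with means of 11.8 FPKM over all mice on chow and 4.23 over all on HFD, and an adjusted p of 0.0242 for Lrrn4, with 1.25 FPKM on chow and 0 on HFD. The exact permutation p, with diets exchanged within each genotype and no adjustment, was 0.00612 for Lrrn4, 0.0106 for Msln, 0.0110 for Gpm6a, 0.0135 for Wt1, 0.0143 for Upk3b and 0.0380 for Krt19. The adjusted limma p of those not called was 0.0586 for Upk3b, 0.0922 for Msln, 0.0991 for Wt1 and 0.18 for Krt19. Krt18 had a difference of -0.04 ± 0.59 (SE, adjusted p = 0.987). An unadjusted limma p under 0.05 with a lower value was met by 6 of the 8, against 8.91% of all tested genes, and the median difference was -1.29. The 6 include Lrrn4, which had passed the filter through chow mice alone. Since the comparison was also chosen after the data had been seen, these counts and the permutation p are descriptions and do not support a diet effect. Gpm6a lost its call without control chow replicate 2 (adjusted p = 0.0740) or 3 (0.0528), ASKO chow replicate 0 (0.0654) or 3 (0.0592), control HFD replicate 0 (0.0604) or 1 (0.0677), or ASKO HFD replicate 0 (0.0734) or 1 (0.0687). Lrrn4 lost it without ASKO chow replicate 1 (0.0514). Conversely, Upk3b was called in 5 of 26 refits, and its adjusted p reached 0.117 in the others. The 5 were a filter of 5 FPKM (adjusted p = 0.047, limma), quantile normalization (0.0478), array weights (0.0459) and fits without ASKO chow replicate 2 (0.0344) or control HFD replicate 3 (0.0266). Msln was called in 1 of 25, without ASKO chow replicate 1 (0.00874), and Wt1 in 1 of 25, without ASKO HFD replicate 0 (0.0447).

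Between genotypes on chow, 0 of the 8 tested markers were called, with 0.00761% of all tested genes called. Upk1b was listed at 0 in all 4 ASKO mice and at 1.80 to 11.7 FPKM in the 4 control mice, without overlap (exact permutation test, two-sided, p = 0.0286, the smallest this design allows), and its adjusted p was 0.604 (limma). Values without overlap and lower were met by 1 of the 8, against 1.13% of all tested genes. Lrrn4 averaged 1.99 FPKM in control and 0.510 FPKM in ASKO mice, with overlapping values (difference -0.98 ± 0.36, SE, adjusted p = 0.913). Gpm6a averaged 14.8 and 8.71 FPKM (adjusted p = 0.983), Upk3b 11.9 and 7.18 FPKM (adjusted p = 0.983), and Wt1 4.78 and 2.49 FPKM (adjusted p = 0.983) in control and ASKO mice. Krt19 averaged 5.59 and 3.83 FPKM (adjusted p = 0.996). Msln went the other way in the mean, with 2.57 FPKM in control and 5.02 FPKM in ASKO mice (adjusted p = 0.988), and turned below 0 with a pseudocount of 0.1. Krt18 also went the other way, with 0.58 FPKM in control and 2.29 FPKM in ASKO mice (difference 0.78 ± 0.84, SE, adjusted p = 0.983). The median difference over the 8 was -0.71, against 0.00 over all tested genes, and -0.62 over the 7 without Upk1b. At an unadjusted p under 0.05, 2 of the 8 (Upk1b and Lrrn4) were lower, against 2.44% of all tested genes. Neither gene would have passed the filter without the control mice on chow, where both were highest. These counts and the permutation p of Upk1b are therefore descriptions and do not support a genotype effect.

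Between genotypes on HFD, 0 of the 8 were called, with 0.00761% of all tested genes called, and 0 of the 8 had an unadjusted p under 0.05, against 5.15% of all tested genes. Gpm6a averaged 2.35 FPKM in control and 6.11 FPKM in ASKO mice (difference 1.11 ± 0.54, SE, adjusted p = 0.963), and the groups overlapped. Upk3b averaged 2.08 and 2.83 FPKM, Msln 0.453 and 0.998 FPKM and Wt1 0.914 and 1.24 FPKM in control and ASKO mice, each difference smaller than its SE. Krt18 averaged 5.13 FPKM in control mice and was listed at 0 in ASKO mice, with 1 control mouse holding most of the sum. Lrrn4 was listed at 0 in both groups.

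Whether the diet effect differed between genotypes was tested by the interaction term. It called 0 of the 8 markers and 0.00% of all tested genes. An unadjusted p under 0.05 was met by 2 of the 8, against 6.30% of all tested genes, with a difference of effects of 2.53 ± 0.76 (SE) for Upk1b (adjusted p = 0.655) and 1.90 ± 0.76 (SE) for Gpm6a (adjusted p = 0.702). Of these, Upk1b would not have passed the filter without the control mice on chow. The median over the 8 was 0.85, against 0.04 over all tested genes, and 0.73 over the 5 markers with a value above 0 in each group. The genotype, diet and interaction comparisons share groups of mice, so they are not independent of each other.

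The markers did not rise and fall closely together from mouse to mouse. Among the 28 pairs of tested markers the Pearson correlation of log2(FPKM + 1) over 16 mice had a median of 0.354 (range -0.236 to 0.709, with 23 pairs above 0), and after removal of the group means the median was 0.053 (range -0.391 to 0.656, with 15 pairs above 0). The points share the library and its depth, and each value is low. Outside the 10 markers, the genes closest to the mean of the tested markers among 6038 genes averaging at least 5 FPKM were Gm14420 (r = 0.856 over 16 mice), Ermp1 (0.854), Adrb3 (0.847), Aldh6a1 (0.842), Chrdl1 (0.842), Crls1 (0.841), Mccc1 (0.834), Enpp5 and Scn7a (at least 0.823 each) and Gm17102 (0.819). They include the β3-adrenergic receptor of adipocytes (Adrb3) and mitochondrial enzymes of branched-chain amino acid breakdown (Aldh6a1, Mccc1). Within groups the same correlations were lower, for example 0.499 for Gm14420, 0.765 for Adrb3 and 0.454 for Aldh6a1.

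The rest of the tissue differed between diets as well. Summed FPKM of 7 macrophage markers was 149.1 to 194 in control mice on chow and 360 to 589 in control mice on HFD, and 135 to 193 and 489 to 677 in ASKO mice. For 9 fibroblast and progenitor genes the ranges were 177 to 312 and 320 to 430 in control mice, and 175 to 231 and 458 to 524 in ASKO mice. For 8 adipocyte genes they were 9404 to 15260 and 4614 to 10620 in control mice, and 8017 to 24200 and 6358 to 7200 in ASKO mice. Fabp4 made up most of this sum (9430 of 11930 FPKM on average in control mice on chow) and was not called for diet in either genotype. The counts of called genes in this paragraph stand beside 2.91% of all tested genes called for diet in control mice and 3.43% in ASKO mice. Of the 8 adipocyte genes, 2 were called lower on HFD in each genotype and 1, Lep, was called higher. Lep averaged 154 FPKM on chow and 616 on HFD in control mice, and 148 and 427 in ASKO mice. The macrophage sums did not overlap between diets in either genotype, and 4 of the 7 genes were called higher in control mice and 6 of 7 in ASKO mice. The fibroblast sums did not overlap either, but 1 of the 9 genes was called in each genotype, Lum, a matrix proteoglycan that averaged 25.7 FPKM on chow and 134.9 on HFD in control mice and 25.2 and 193.8 in ASKO mice. Of the 9, 4 were below 0 in control mice and 2 in ASKO mice. All defining markers named here (Adgre1, Csf1r and C1qa, Pdgfra, Col1a1 and Dpp4, Adipoq, Plin1 and Lep) were listed above 0 in at least 11 of the 16 mice. FPKM is a share of each library, and the part of these differences in the lower values of the mesothelial markers was not tested. Of 6 endothelial genes, 0 were called for diet in either genotype, and Pecam1, Cdh5 and Kdr were above 0 in all 16 mice.

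Of 14 other genes known from mesothelial cells, 13 were in the table and 10 were tested. In control mice 0 of the 10 were called for diet (5 below 0 and 5 above, median difference -0.22), against 2.91% of all tested genes. In ASKO mice it was 0 of the 10 (6 below 0 and 4 above, median -0.18), against 3.43%. Over both genotypes 1 of the 10 was called lower, against 3.04% of all tested genes called lower and 7.53% in either direction. With so few genes, these counts do not set the list apart from all tested genes. The gene called was Efemp1, an extracellular matrix protein that fibroblasts also make. It averaged 42.3 FPKM in control and 35.4 FPKM in ASKO mice on chow and 17.6 and 20.6 FPKM on HFD (difference -0.96 ± 0.24, SE, adjusted p = 0.0205, limma). Summed FPKM of the 13 ranged from 48.0 to 150 in control mice on chow and from 44.2 to 94.0 in control mice on HFD, so the groups overlapped. Of this list, Bnc1 was above 0 in 2, Nkain4 in 3 and Krt7 in 4 of the 16 mice, with highest values of 2.12, 6.25 and 2.47 FPKM.

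**Figure D4:**
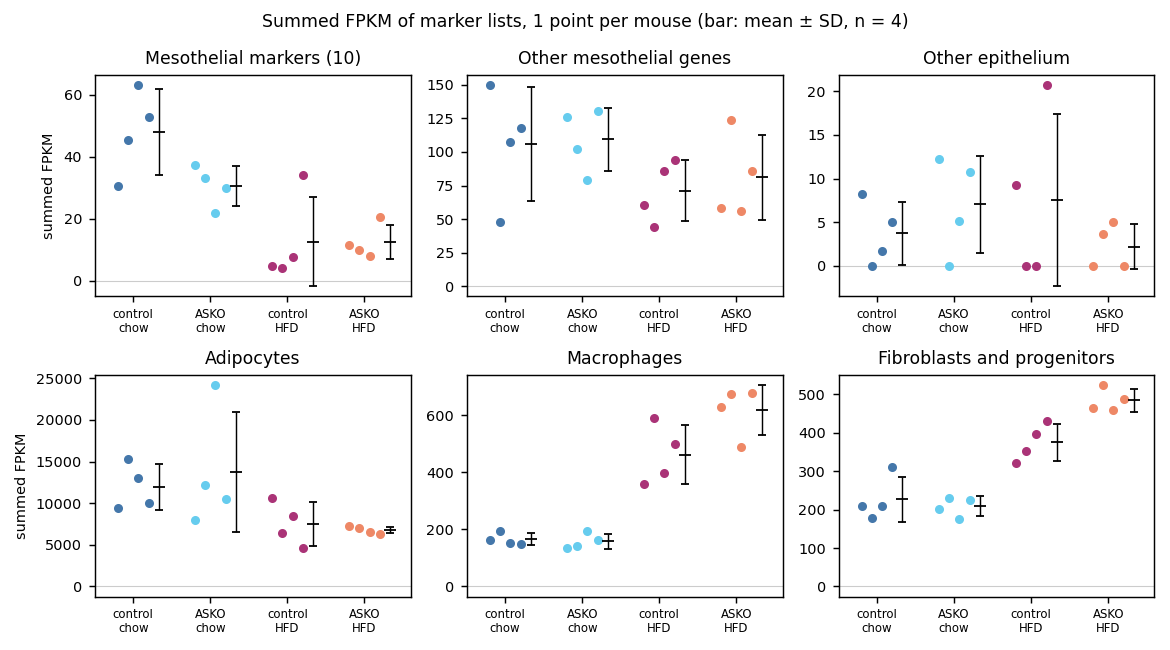
Summed FPKM (y axes, linear, a separate scale for each list) of the 10 mesothelial markers, 13 other mesothelial genes, 6 other epithelial genes and the adipocyte, macrophage and fibroblast lists in the 4 groups (x axis), with 1 point per mouse and a bar for the mean ± SD (n = 4). Control mice on HFD have 1 mouse at 34.2 for the mesothelial markers and at 20.8 for the other epithelial genes.

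Control HFD replicate 3, the mouse with the high sum, also had the highest level of other epithelial genes. Of 9 such genes 6 were in the table, and their summed FPKM was 20.8 in this mouse and 0 to 12.2 in the other 15. Epcam was 4.31, Cdh1 3.74, Elf3 6.44 and Cldn3 6.29 FPKM in it. The rest of the list, Cldn7 and Krt14, was at 0 in it, and Cldn7 reached 8.35 FPKM in an ASKO mouse on chow. Cdh1 was above 0 in 1 other mouse, Elf3 in 1, Epcam in 4 and Cldn3 in 5, and Cldn3 was higher in 3 of these, at 6.42, 7.59 and 10.7 FPKM. Krt18 gave 17.3 of its 34.2 FPKM for the mesothelial markers. Of 12 genes of the epididymal epithelium 2 were in the table, with a sum of at most 2.89 FPKM in any mouse, and none of 4 testis germ cell genes was listed in it. Acta1, the single skeletal muscle gene of 5 in the table, ranged from 0 to 11.7 FPKM.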

How the data were processed

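Per the authors, trimming was done with TrimGalore!, alignment to mm10 with STAR and quantification with Cufflinks. They deposited 1 table of FPKM for 16 mice without read counts, so the depth per library is not given. FPKM summed to 606407 to 982016 per mouse. Starts in the table were 1 base below GENCODE M21 for 9169 of 14748 genes of the same version and are given 1-based. The members and gene lists were chosen with earlier results of these data known.

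The 13148 genes that reached 1 FPKM in 4 or more mice were tested on log2(FPKM + 1) with limma 3.58.1 (R 4.3.3, trend, 4 groups in 1 fit, 5 contrasts and diet over both genotypes, Benjamini-Hochberg adjustment within each), after a check on simulated data. Differences on this scale understate the change of low genes. Exact permutation tests used 70 splits of 4 against 4 mice, or 4900 within genotypes. The alternatives were other pseudocounts, filters, scalings and fits, and leaving out each mouse.

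The value of 1 fragment was estimated from steps in the low FPKM of 1161 coding genes with 1 transcript (2.41 to 4.38 FPKM per kilobase). At that estimate a transcript of 1 kilobase with 1 fragment reads 2.41 to 4.38 FPKM. Such a transcript at a lower level could be listed at 0, which bears on all counts of mice above 0. Since only 50.1 to 82.0% of low values lay within 0.2 of a whole step, against 40.0% for even values, fragment numbers are approximate and were not tested as counts. Near-identical copies were sought with blastn 2.17.0 (at least 90% identity over 200 bases). Each mouse is a separate sample in the labels, and 0 of 120 pairs had identical values. The strand setting of Cufflinks is not given in the sources used here.

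Named genes are the 10 members, Mboat7, called genes of the other mesothelial list, the first 3 genes of each list of another cell type, and the 10 genes most like the members. Bnc1, Nkain4, Krt7, Elf3, Cldn3, Cldn7, Krt14, Lum, Fabp4, Krt8-ps, Ppia and Pgk1 were named after their values were seen.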

Additional observations from a re-analysis of the deposited data

Results flagged for a closer look

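In 8 of 35 groups of 4 mice with any spread, the highest mouse stood far from the others. Chance gives about 1 in 20 for groups of continuous values, a rate that does not apply to the 6 of the 8 in which the other 3 mice were listed at 0, since any value above 0 then stands apart. These 6 were Msln in control mice on HFD (1.81 FPKM), Upk1b in control mice on HFD (1.83 FPKM), Krt19 in ASKO mice on HFD (2.27 FPKM), Krt8 in ASKO mice on chow (2.44 FPKM), Krt18 in control mice on chow (2.32 FPKM) and Muc16 in control mice on chow (0.113 FPKM). Upk1b reached 11.7 FPKM in 1 control mouse on chow, with the others between 1.80 and 3.37 FPKM. The summed FPKM of the 10 markers was 34.2 in control HFD replicate 3, with the others between 4.05 and 7.52. The diet effect differed between genotypes at an unadjusted limma p under 0.05 for Upk1b, by 2.53 on the log2(FPKM + 1) scale, and for Gpm6a, by 1.90, and neither passed adjustment (adjusted p = 0.655 and 0.702).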

How the results depend on the processing

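Members called for diet in control mice numbered 2 in the fit of all mice, 0 in a fit of the 2 groups alone, and 0 to 3 when 1 mouse was left out. With a filter of 5 FPKM 1 was called, Gpm6a. Only Gpm6a and Upk3b passed that filter, so Lrrn4 was not tested under it. For diet over both genotypes leaving out 1 mouse gave 1 to 3 members called, against 2. In the genotype contrasts, the diet contrast in ASKO mice and the interaction 0 members were called under each alternative run. Of the members' fitted differences under the alternatives, 1209 kept direction and side of the threshold, 23 lost the call, 10 gained it and 23 turned sign, and in these last the cause was not tested. The difference of Msln between genotypes on chow was -0.18 with a pseudocount of 0.1 and -0.067 to 1.07 with 1 mouse left out. That of Krt19 on chow was -1.11 to 0.26, and that of Wt1 on HFD -0.36 to 0.42. The interaction ranged from -0.53 to 0.61 for Msln and from -0.73 to 0.64 for Krt19, and for Krt19 was 0.039 when scaled without the 10 highest genes and 0.085 with array weights. Krt18 over both genotypes ranged from -0.47 to 0.24. None of these had an adjusted p under 0.05.

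Over all tested genes, 383 were called for diet in control mice and 451 in ASKO mice, and fits of the 2 groups alone called 255 and 265. Leaving out control chow replicate 1 gave 255 and ASKO HFD replicate 0 gave 265. Genotype called 1 gene on each diet, and 0 to 4 on chow and 0 to 3 on HFD with 1 mouse left out. With the replicate block, members called for diet in control mice numbered 3 (Upk1b joined, adjusted p = 0.0409) and all tested genes called 361, and no other member changed its call. Mice with the same replicate number did not deviate together (24 pairs, median r = 0.007, 1 pair above 0.1), so the numbers were taken as names. The fit of 2 groups alone has no value for the interaction or for diet over both genotypes. The markers were estimated at no more than 27 fragments in any mouse, and whether depth limited the number of calls was not tested.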
